A study of Mus musculus with 10 samples.

Results

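The clustered protocadherins are cell surface cadherins encoded in 3 neighbouring gene clusters, alpha, beta and gamma, and they were followed here in the left atrium of adult mice with and without a Tbx5 deletion. Members were taken by symbol, as all genes of the deposited table whose name begins with Pcdha, Pcdhac, Pcdhb, Pcdhga, Pcdhgb or Pcdhgc and a number. This gave 59 of the 23337 genes in the table: 15 alpha, 22 beta and 22 gamma members, the last made up of 12 of type A, 7 of type B and 3 of type C. The study made RNA-seq libraries of left atria, 4 labelled control (Tbx5 +/+, 2 male and 2 female) and 6 labelled Tbx5 knockout (Tbx5-/-, 3 male and 3 female). All were aged 8 to 10 weeks per the sample labels, although the extraction protocol gives 6 to 8 weeks, and all were of a mixed strain of C57B6 and 129 backgrounds. In the knockouts exon 3 of Tbx5 was removed by a tamoxifen-inducible Cre driven from the ubiquitous R26 promoter, with 0.167 mg of tamoxifen a day for 3 days and tissue taken 1 week later. The deletion was therefore not restricted to cardiomyocytes, and the labels do not say whether controls received tamoxifen or carried the Cre. The labels give each library a sex and a number but do not state that each came from a separate animal, so p-values measure the spread between these samples.

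In the alpha and gamma clusters each isoform has its own promoter and a long first exon that encodes the whole extracellular part, and that variable exon is spliced to a few exons shared by the whole cluster, which encode a common cytoplasmic end. Beta genes consist of a single exon and lack such a common end. In neurons most isoforms are switched on by promoter choice, with CTCF and cohesin bringing a promoter to a distant enhancer and DNA methylation keeping others silent, whereas the C-type isoforms are mostly expressed by rules of their own. The proteins bind like to like between cells and are best known for self-recognition of neurites, and less is established for the heart.

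In GENCODE M21 gene models on GRCm38 (mm10), 58 members were found, all on the plus strand of chromosome 18 between 36930285 and 37841873, a stretch of 911.589 kb; Pcdha4-g had no model there. The alpha models overlapped in 3 constant exons of 59, 89 and 2712 bp, and the gamma models in 3 constant exons of 59, 89 and 1971 bp. Pcdhgb8 was the exception in extent, its model ending inside the last of these. The variable exon of a gamma A or B member was 2421 to 2961 bp long. A read in a constant exon cannot be assigned to 1 isoform, and how the authors' counting treated such reads is not given in the sources used here. The lowest gamma member, Pcdhgc5, had 16 to 26 reads in any library, which bounds the number of reads that could have been counted alike for every gamma member. Near-identical stretches within the variable exons were limited: windows of 51 bp, the read length, that recur in another member made up at most 4.14% of a gamma A exon, 2.52% to 17.6% of a gamma B exon and none of a gamma C exon. Antisense gene models cover all of the variable exon of Pcdhga10, 58.9% of that of Pcdhgc3, 52.4% of that of Pcdhga11, 29.7% of that of Pcdhgb7 and 20.5% of that of Pcdhga7. For Pcdhga8, Pcdhga1 and Pcdhga12 the covered part was 15.9%, 15.8% and 14.3%, for the beta gene Pcdhb12 63.5%, and for Pcdha4, Pcdha6, Pcdha11 and Pcdha12 it was 15.7% to 97.8%. The strand setting of the counting is not given in the sources used here, so reads of these 13 genes and of their antisense partners cannot be told apart.

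Library totals were 5701670 to 7697556 reads in controls and 5789632 to 7355782 in knockouts. Tbx5, the targeted transcription factor, had normalized counts of 1077.3, 992.3, 785.3 and 900.6 in controls, and a low of 1496.7, a median of 1990.9 and a high of 2460.3 in knockouts. Its whole-gene count was thus higher in every library labelled knockout (difference in mean log2(normalized count + 1) 1.05, exact two-sided permutation test, p = 0.00476, the smallest that 4 against 6 libraries allow). A count over the whole gene does not measure the removed exon 3, so it does not check the labels, and the word knockout stands for the label throughout. Atrial cardiomyocyte markers, checked against the labelled tissue, were all present, with 8 of 8 tested. Over all genes 5622 of 13191 tested passed an adjusted p of 0.05 in edgeR's quasi-likelihood test.

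Of the 59 members, 37 had enough reads to be tested, 22 of 22 gamma, 15 of 22 beta and 0 of 15 alpha. The gamma cluster carried 19434 of the members' 24423 reads, the beta cluster 4863 and the alpha cluster 126. Levels below are the authors' normalized counts, the read count divided by 1 size factor per library. Where genes are compared with each other, the level is given per kb of variable exon, or for beta genes per kb of the RefSeq length.

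**Figure D1:**
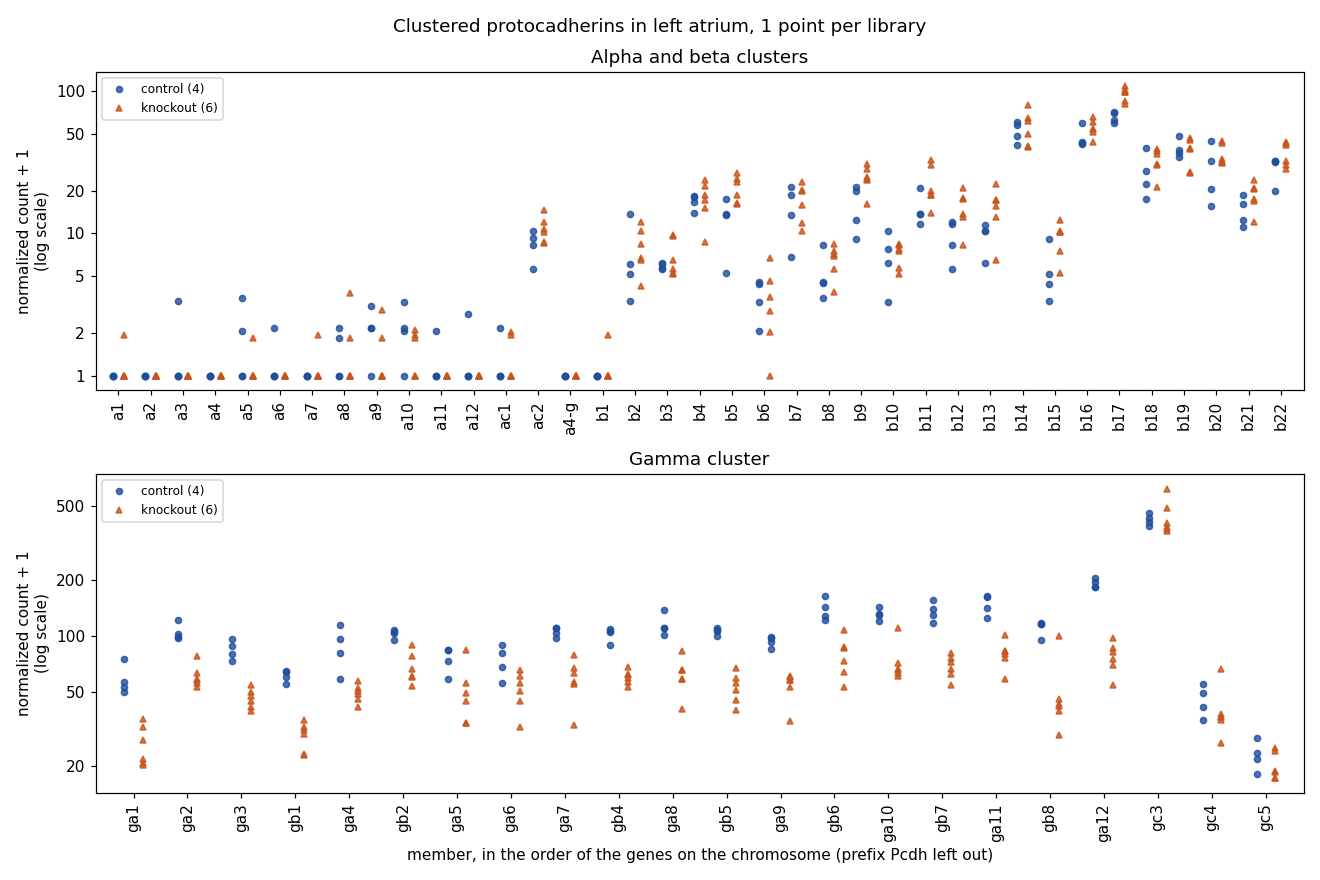
Normalized count + 1 on a log axis for each of the 59 members, with 1 point for each of 4 control (circles) and 6 knockout (triangles) libraries and members in chromosomal order, except Pcdha4-g, which has no gene model and is placed after Pcdhac2. Alpha members other than Pcdhac2 lie at or near 0 reads, beta controls reach a mean of 65.0 at Pcdhb17, and most gamma A and B members have all knockout points below the control points.

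The gamma A and B isoforms fell. Of 19 members, 18 passed the test lower in knockouts, where 21.8% of all tested genes did, and all 19 had a negative fold change. The median log2 fold change was −0.88, against −0.000915 over all tested genes, and 7.11% of all tested genes lay below that median. Levels in knockouts were 1.45 to 2.55 times lower across the 19. In 16 of them every knockout library lay below every control library, a separation seen in 15.0% of all tested genes. In bulk tissue, fewer cells of a type and less RNA per cell cannot be told apart. The authors' deposited table, from their own comparison, has 17 of the 19 lower at adjusted p under 0.05, against 17.8% of the genes it tested.

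Pcdhga12, the last A-type isoform before the C-type exons (chromosome 18, 37765580 to 37841873), had the highest level of the 19 and the largest fall. Its normalized counts in controls were 193.9, 204.9, 182.7 and 183, and in knockouts the lowest was 53.1, the median 77.6 and the highest 96.5. The highest knockout library was thus well under the lowest control. The fold change was −1.35 ± 0.14 (log2, SE; edgeR adjusted p = 7.91e-06).

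Pcdhgb7, a B-type isoform, stood at 117.1, 138.0, 156.1 and 128.7 in controls and between 53.1 and 79.9 in knockouts, with a median of 68.1, and it fell by 1.02 ± 0.13 on the log2 scale (edgeR adjusted p = 4.70e-05). Pcdhga11 had 163.2, 123.6, 160.8 and 141.2 in controls and 57.7 to 100.6 in knockouts, median 80.3 (log2 fold change −0.91 ± 0.14, edgeR adjusted p = 0.000194). Neither gene overlapped between the groups. Pcdhgb6 was lower too, from 141.9, 121.1, 164.2 and 127.6 to a range of 52.2 to 106.8 with a median of 78.9 (−0.86 ± 0.17, edgeR adjusted p = 0.00125). Pcdhga10 went from 141.9, 129.5, 130.7 and 119.2 to 59.6 to 109.9 with a median of 65.0 (−0.88 ± 0.16, edgeR adjusted p = 0.000606). In both genes the highest knockout was library M1, and it still lay under the lowest control.

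Pcdhga1, the first variable exon of the cluster and the lowest of the 19 in controls (mean 57.9, SD 11.4, n = 4), had a mean of 25.3 (SD 6.6, n = 6) in the knockout libraries, a log2 fold change of −1.20 ± 0.21. Pcdhgb1 was 59.9 ± 4.2 against 28.0 ± 5.1 (−1.11 ± 0.16) and Pcdhgb5 105.3 ± 4.4 against 52.2 ± 9.9 (−1.04 ± 0.14). The other called members, Pcdhga2, Pcdhga3, Pcdhga4, Pcdhga7, Pcdhga8, Pcdhga9, Pcdhgb2, Pcdhgb4, Pcdhgb8 and Pcdhga6, had fold changes between −1.21 and −0.54. Pcdhgb8 was one of the 3 members whose groups overlapped: its controls were 114.7, 116.8, 114.5 and 94.1, 5 knockouts lay between 28.1 and 44.9, and knockout M1 stood at 98.5. Its log2 fold change was −1.21 ± 0.26 (edgeR adjusted p = 0.00198), and −1.51 without that library.

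Pcdhga5 and Pcdhga6 were the weakest of the 19. Pcdhga5 had 72.1, 57.6, 83.3 and 82.6 in controls and 32.7 to 83.0 in knockouts, and did not pass (−0.60 ± 0.24, edgeR adjusted p = 0.0521). It passed with GC and length offsets (−0.67, edgeR adjusted p = 0.0230). In 8 of the 10 fits that left out 1 library it did not pass, with edgeR adjusted p from 0.00362 to 0.148 over all 10. Pcdhga6 had 67.4, 55.0, 87.9 and 79.5 in controls and 31.2 to 64.5 in knockouts, and passed narrowly (−0.54 ± 0.20, edgeR adjusted p = 0.0445). Both overlapped between the groups, and the call of Pcdhga6 was lost in 7 of the 10 fits that left out 1 library, with adjusted p up to 0.164 (without control F1). The other 17 called members kept an adjusted p under 0.05 whichever library was left out.

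**Figure D2:**
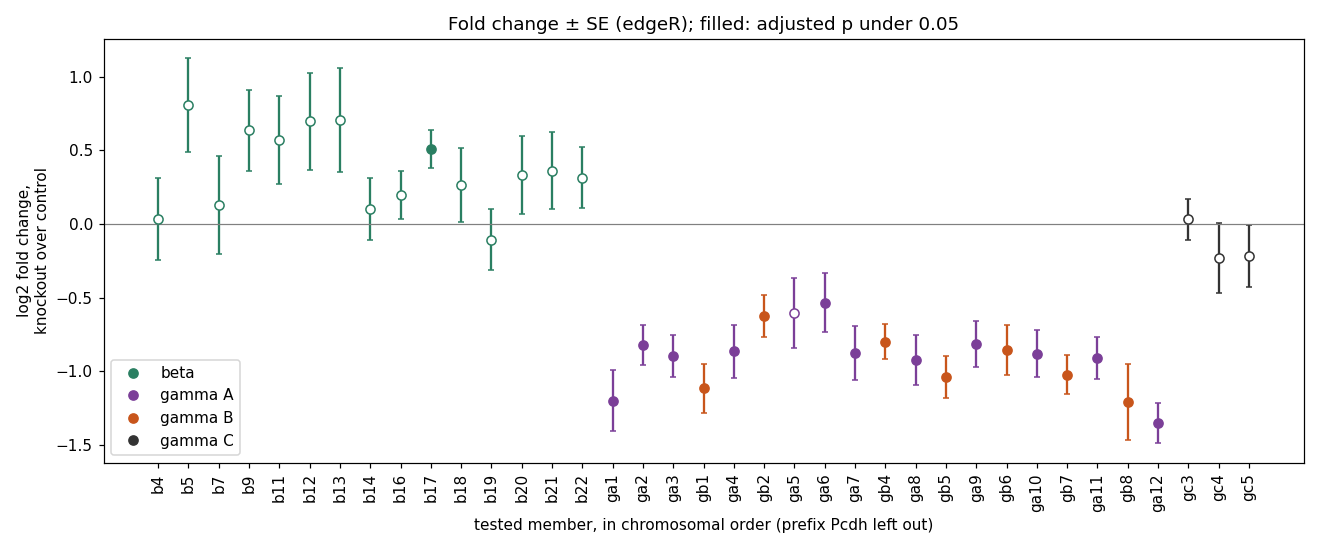
Log2 fold change of knockout over control with its SE (edgeR) for the 37 tested members in chromosomal order, filled where the adjusted p is under 0.05. The 19 gamma A and B members run from −1.35 to −0.54, 14 of 15 beta members lie above 0, and Pcdhgc3 lies at 0.03.

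The C-type isoforms at the end of the same cluster, which splice to the same constant exons, showed no called change. Pcdhgc3 (chromosome 18, 37806410 to 37841873) was the highest of all 59 members, at 165 ± 12 normalized counts per kb in controls and 172 ± 38 in knockouts, against 64.6 per kb in controls for Pcdhga12. Its normalized counts were 432.8, 391.2, 410.6 and 461.3 in controls, with a low of 367.3, a median of 396.8 and a high of 622.3 in knockouts. The groups overlapped, and the log2 fold change was 0.03 ± 0.14 (edgeR adjusted p = 0.874); it was −0.03 with offsets for GC content and length, −0.07 without knockout M1 and −0.20 in female libraries alone. In the other direction, it reached 0.10 with 1 library left out. It was 0.08 with upper-quartile scaling and 0.18 with library size only, where the medians of all tested genes were 0.05 and 0.14.

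Pcdhgc4 was far lower, at 34.3, 48.3, 40.5 and 54.4 in controls and 25.5 to 65.3 in knockouts, with a median of 35.5 (−0.23 ± 0.24, edgeR adjusted p = 0.460). Pcdhgc5 was lowest, at 22.5, 16.9, 20.8 and 27.2 in controls and 16.1 to 23.9 in knockouts, with a median of 17.6 (−0.22 ± 0.21, edgeR adjusted p = 0.439). These 2 genes had only 16 to 63 reads per library, and a p above the threshold does not show that any of the C types was equal in the groups.

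The difference between Pcdhgc3 and its A and B neighbours was tested directly, library by library, as the log2 ratio of each member to Pcdhgc3; this test was chosen after the data had been seen. The ratio was lower in knockouts for all 19 members, by 0.56 (Pcdhga6) to 1.37 (Pcdhga12) on the log2 scale. It passed an unadjusted p of 0.05 in 18 of 19 exact two-sided permutation tests, with p from 0.00476, the smallest that 210 splits allow, to 0.0286 (Pcdhga4). For Pcdhga6 the permutation p was 0.0619. Of all tested genes, 17.2% had a ratio to Pcdhgc3 lower in knockouts at that threshold.

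**Figure D3:**
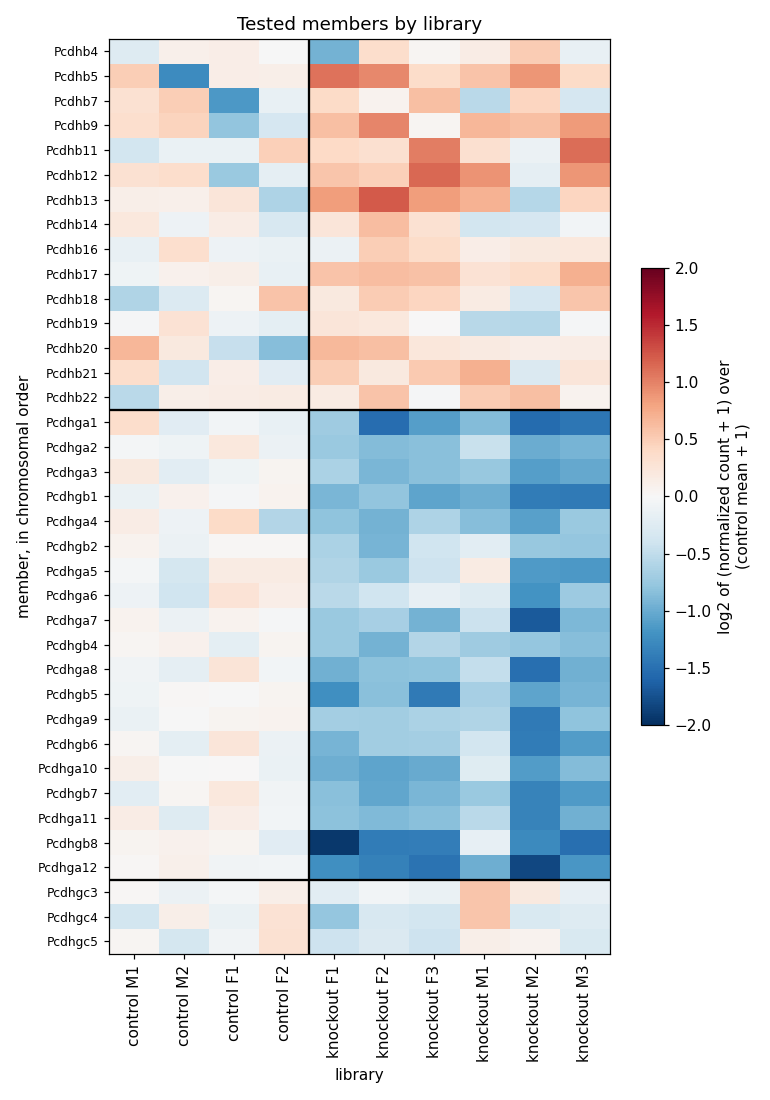
Log2 of (normalized count + 1) over (control mean + 1) for the 37 tested members (rows, chromosomal order) in 4 control and 6 knockout libraries (columns); blue is below and red above the control mean, and lines part controls from knockouts, beta from gamma and gamma C from gamma A and B. The gamma A and B rows are blue across the knockouts except some cells of knockout M1, such as Pcdhga5 at 83.0, while the Pcdhgc3 row is near white apart from knockout M1.

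Summed over members, gamma A counts averaged 1258 ± 91 over the 4 controls (SD) and 679 ± 124 over the 6 knockouts, a ratio of 1.85. Gamma B counts were 752 ± 26 against 400 ± 69, a ratio of 1.88. The sum of both was 1907 to 2147 in controls and 831 to 1405 in knockouts, so the groups did not overlap. The sum of the C types, mostly Pcdhgc3, was 490 ± 38 against 499 ± 114. The share of gamma counts taken by Pcdhgc3 therefore was 15.7% to 18.6% in controls and 24.7% to 35.4% in knockouts, without overlap. Gamma A took 50.3% ± 1.7 against 43.0% ± 4.1 and gamma B 30.1% ± 1.1 against 25.4% ± 0.7.

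**Figure D4:**
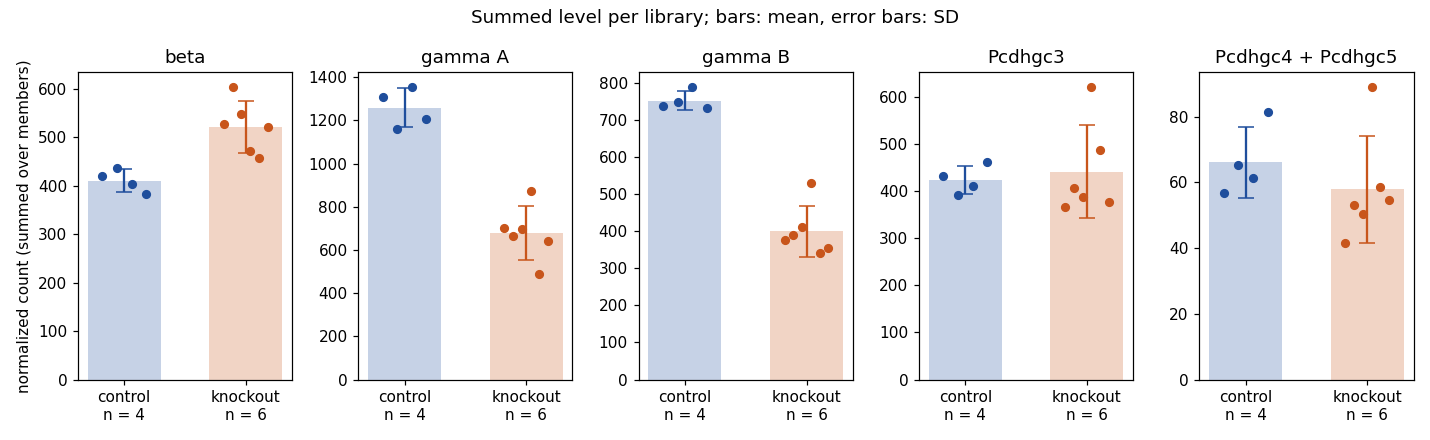
Summed normalized counts per library (points) with mean (bars, from 0) and SD (error bars) in 4 controls and 6 knockouts, for the beta cluster, gamma A, gamma B, Pcdhgc3 and the sum of Pcdhgc4 and Pcdhgc5. Gamma A and gamma B knockouts lie below all controls, beta knockouts (456 to 605) lie above all controls (383 to 437), and the C types overlap.

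**Figure D5:**
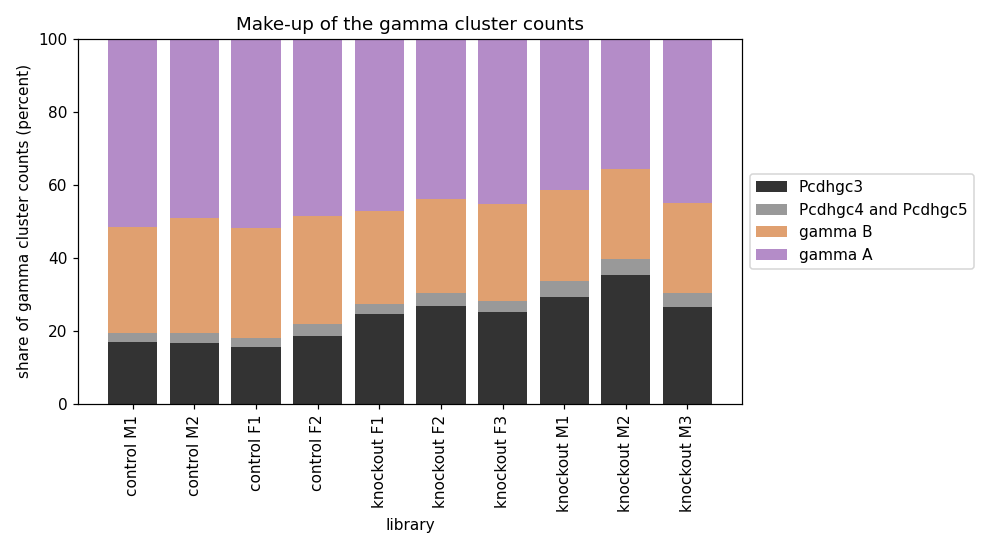
Share of all gamma cluster counts, in percent, taken by Pcdhgc3, by Pcdhgc4 and Pcdhgc5 together, by gamma B and by gamma A in each of the 10 libraries. Pcdhgc3 takes 15.7% to 18.6% in controls and 24.7% to 35.4% in knockouts, the highest being knockout M2.

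Knockout libraries differed among themselves. Knockout M1 was the highest of the 6 in 16 of 22 gamma members, with a gamma A and B sum of 1405, and in it all 3 C types were also highest. Knockout M2 was the lowest in 13 of 22, with a sum of 831. Leaving out knockout M1 gave 19 called members, and leaving out knockout M2 gave 17. In controls, the level per kb of the 19 A and B isoforms tended to be higher nearer the constant exons, from 22.5 at Pcdhga1 to 64.6 at Pcdhga12 (Spearman's rho −0.82 against the distance to the first constant exon, across 19 genes of the same libraries, which are not independent). The log2 fold change followed that distance only weakly (rho 0.31), as it did the control level (−0.32), the GC content of the variable exon (−0.16) and the share of recurring 51 bp windows (0.09). The control libraries enter both the control level and the fold change, so the rho of −0.32 can be partly built in.

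In the beta cluster no tested member passed lower. Of 15 tested, 1 passed higher, Pcdhb17, where 20.8% of all tested genes did, so the share is below that of all genes. In 14 of the 15 the fold change was above 0, with a median of 0.33, and it was −0.11 ± 0.21 for Pcdhb19, whose sign turned with scaling by library size alone (0.02) and with GC and length offsets (0.22). With limma-voom 13 of 15 were above 0. With so few reads per gene (Pcdhb13, for example, had 5 to 23 reads per library) SEs ran up to 0.35. The authors' deposited table also has 1 beta member higher, against 18.7% of the genes it tested.

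Pcdhb17 (chromosome 18, 37484795 to 37489454) is a single-exon beta gene and was the highest of the cluster, at 19.9 normalized counts per kb in controls. It had normalized counts of 61.5, 69.4, 70.5 and 58.6 in controls and a low of 79.9, a median of 97.3 and a high of 106.9 in knockouts. Every knockout library was above every control library, as in 16.3% of all tested genes. The log2 fold change was 0.51 ± 0.13 (edgeR adjusted p = 0.00561), and no single library removed the call.

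The next beta members by level did not pass. Pcdhb14 stood at 51.0 ± 8.5 in the controls (SD, n = 4) and 55.3 ± 15.3 in the knockouts (n = 6), Pcdhb16 at 46.1 ± 8.2 and 54.1 ± 7.7, and Pcdhb19 at 38.6 ± 6.1 and 36.5 ± 8.9. Without knockout F2 the log2 fold change of Pcdhb14 was −0.02, from 0.10. Pcdhb20 was 27.3 ± 13 against 34.9 ± 6.0 and Pcdhb22 28.0 ± 6.1 against 35.6 ± 6.9, again within the spread. Pcdhb5 came close, with 16.6, 4.2, 12.7 and 12.6 in controls and 15.2 to 25.5 in knockouts (0.81 ± 0.32, edgeR adjusted p = 0.0542); it was singled out after its value was seen. Pcdhb5 passed with scaling by library size only or by upper quartile, with limma-voom, and without control M1 or knockout F3. The number of beta members called was 2 without control M1 or without control M2, and 3 without knockout F3 or without knockout M2. Summed over all 22 beta genes the level was 411 ± 23 in controls and 521 ± 54 in knockouts, without overlap, and its ratio to the gamma A and B sum was 0.205 ± 0.018 against 0.494 ± 0.084. The 7 beta members under the expression filter were Pcdhb1, Pcdhb2, Pcdhb3, Pcdhb6, Pcdhb8, Pcdhb10 and Pcdhb15, with 1 to 69 reads in all 10 libraries together.

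The alpha cluster was close to silent in this tissue at this depth. Its 15 members together had 7 to 17 reads in each library, and none entered the test. Pcdhac2, the C-type isoform nearest the alpha constant exons, held 90 of the 126 reads, with 7, 11, 4 and 7 in controls and 8 to 13 in knockouts, or 7.4 ± 2.0 normalized counts against 9.8 ± 2.2, and the groups overlapped. Pcdhac1 had 3 reads in all. Pcdha9 and Pcdha10 had 7 reads each, Pcdha8 had 6 and Pcdha5 had 5. No read was counted for Pcdha2, Pcdha4 or Pcdha4-g, which allows a level of up to 0.0461 CPM (counts for each 1e+06 reads) over the 10 libraries, or 0.390 to 0.526 within 1 library, counting error only.

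No member passed a test for a genotype effect that differed between males and females (edgeR, 0 of 37, against 0.205% of all tested genes; DESeq2 and limma-voom also 0). An unadjusted threshold of 0.05 was passed by 4 of the 37 members, where 7.15% of all tested genes passed it, and the lowest edgeR adjusted p was 0.264 (Pcdhb20). All 4 were among the 15 tested beta members: Pcdhb7, Pcdhb14, Pcdhb19 and Pcdhb20. In each the log2 fold change was lower in males than in females, by −1.50 (Pcdhb7) to −0.77 (Pcdhb14). On simulated data the edgeR test recovered 0 of 67 differences of 1.5-fold between the sexes, 8 of 67 of 2-fold and 52 of 66 of 4-fold. The 0 of 37 therefore does not show that the effect was equal in the sexes. Fitted within females the gamma A and B median was −0.90 with 19 called lower, and within males −0.86 with 8 called lower. All 19 were negative in each sex, and the male fit called fewer genes in all, 2061 against 4957.

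Genes known from work on promoter choice and silencing of these clusters included many that were lower. Of 23 tested, 13 fell, 1 rose and 9 did not pass, where 21.8% of all tested genes fell and 20.8% rose. Their median log2 fold change was −0.48. Among those that fell, Nipbl, the loader of cohesin, was 851 ± 124 in controls and 386 ± 37 in knockouts (−1.16 ± 0.11, edgeR adjusted p = 3.30e-06), and the ring subunit gene Smc3 446 ± 41 against 196 ± 48 (−1.21 ± 0.16). Stag2 and Stag1, alternative subunits of cohesin, fell by 0.89 ± 0.12 and 0.74 ± 0.11 on the log2 scale. Tet1, which oxidizes methylated cytosine, was at −1.25 ± 0.15, and Smchd1, a silencing factor of clustered genes, at −0.81 ± 0.10. These 6 were named for having the smallest adjusted p of the list, and in each every knockout lay below every control, as in 15.0% of all tested genes. With offsets for GC content and length the fold changes were smaller but passed, at −0.75 for Nipbl, −0.72 for Tet1, −0.51 for Smchd1, −0.47 for Stag1, −0.60 for Stag2 and −1.04 for Smc3. Ctcf, named for its role and not by the selection rule, was 389 ± 23 against 337 ± 23 (−0.23 ± 0.08, edgeR adjusted p = 0.0382), a call that was lost in 9 of the 10 fits that left out 1 library, all but that without knockout F2. The 1 that rose, Dnmt1, was at 0.57 ± 0.16 (edgeR adjusted p = 0.0121). Rad21 (0.21 ± 0.11) and Mau2 (−0.22 ± 0.10) were among the 9 that did not pass. These 3 were also named outside the selection rule. With the offsets 12 of the list fell and 3 rose. Whether any of these moves bears on the gamma isoforms was not tested.

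Non-clustered protocadherins, encoded outside the alpha, beta and gamma clusters, were mixed, with a median of −0.25. Of these, 4 of 9 tested fell and 1 rose, against 21.8% and 20.8% of all tested genes. Pcdh7, the highest of them, was 3023 ± 380 against 2408 ± 367 (−0.35 ± 0.12, edgeR adjusted p = 0.0284), a call that was lost with GC and length offsets (−0.06, edgeR adjusted p = 0.647) and without control F1, F2 or M1 or knockout F1, F2 or F3. Pcdh17 (−0.94 ± 0.22), Pcdh15 (−0.75 ± 0.15) and Pcdh20 (−0.70 ± 0.24) were the others that fell, and Pcdh18 rose by 0.41 ± 0.12. The call of Pcdh20 was lost without control F1, F2 or M1 or knockout F1, F2, F3 or M3, and with these offsets, under which 2 of the 9 fell and 2 rose. Of known protein partners of protocadherins, 4 of 17 tested rose and 2 fell, near or below the 20.8% and 21.8% of all tested genes; Ret, a receptor tyrosine kinase that binds them, went from 38.6 ± 14.8 to 14.3 ± 6.4 (−1.46 ± 0.33), and Pdcd10 rose by 0.47 ± 0.11. Marcks rose by 0.90 ± 0.16, Abi1 and Rac1, of the actin-regulating WAVE pathway, by 0.28 ± 0.09 and 0.24 ± 0.08, and Nckap1 of the same pathway fell by 0.37 ± 0.11. Without control F1 the calls of Nckap1 and Rac1 were lost, and that of Rac1 also without control F2 or M1 or knockout M2. Other large cadherins split 5 up and 6 down of 18 tested, beside the 20.8% and 21.8% of all tested genes. The 5 became 3 without control F1, where Cdh5 and Dchs1 lost their calls, and Cdh5 lost its call also without control F2, M1 or M2 or knockout F1 or M2. The desmosomal cadherins Dsc2 and Dsg2 fell by 2.57 ± 0.15 and 0.97 ± 0.13, Fat3 and Celsr3 by 2.64 ± 0.25 and 1.84 ± 0.26, while Cdh2 and Fat1 rose by 0.65 ± 0.10 and 0.66 ± 0.11.

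Markers of several cell types moved with genotype beside these genes. The counts stand beside the 20.8% of all tested genes called higher and the 21.8% called lower. Some counts, such as both for the epicardial list, were below those shares. Of 8 atrial cardiomyocyte markers 6 fell and 2 rose, Actc1 (0.56 ± 0.12) and Tnnt2 (0.63 ± 0.17), with a summed level of 605651 to 669520 in controls and 301164 to 463703 in knockouts; Nppa and Myh6 were the most abundant (−1.06 ± 0.27 and −0.37 ± 0.13), the call of Myh6 being lost with GC and length offsets and in 7 of the 10 fits that left out 1 library (all but those without knockout F1, F2 or M3). Nppa (213896 ± 9678 against 104127 ± 41660) and Myh6 (175000 ± 8133 against 138013 ± 19791) made up much of the cardiomyocyte sums. Of 9 tested glial markers 4 fell and 1 rose, with sums of 623 to 818 against 434 to 578. The 1 that rose, S100b, was not called without control F1 or F2 or knockout F2, F3 or M2, nor with the offsets. Mbp, the most abundant, was lower (−0.93 ± 0.13) and made up much of these sums (382 ± 77 against 204 ± 25). Cnp (−0.14 ± 0.11), Ngfr (0.89 ± 0.41), Gfra3 (0.87 ± 0.40) and Fabp7 (0.87 ± 0.36) did not pass. Neuronal markers were near the floor, with sums of 57.8 to 85.5 against 67.4 to 108 and Slc18a3 at 0 in all libraries. Of 17, 4 were tested, 2 of them higher (Uchl1 and Tubb3) and 1 lower (Dbh). Uchl1 was not called with the offsets or without control F1 or F2 or knockout F1, F2 or M2. Dbh went from 25.1 ± 9.5 to 3.9 ± 1.7 (−2.68 ± 0.35), with every knockout below every control. Fibroblast markers were 7 higher and 2 lower of 10 (54136 to 60001 against 82372 to 108810; Col3a1 1.66 ± 0.18, Gsn −0.61 ± 0.18). Macrophage (8 of 8; Lyz2 and Mrc1) and dividing-cell markers (8 of 8; Top2a and Mki67) were all higher, at sums of 4041 to 5533 against 8679 to 13103 and of 105 to 312 against 996 to 2707. Smooth muscle and pericyte markers were 5 higher and 1 lower of 10 (3609 to 4286 against 4672 to 5444; Pdgfrb higher, Rgs5 −0.34 ± 0.15), endothelial 3 and 2 of 9 (8322 to 9333 against 9113 to 9946; Cdh5 higher with the limits above, Pecam1 0.04 ± 0.09), endocardial 2 and 2 of 4 (8781 to 10046 against 11246 to 13974; Vwf higher, Npr3 lower) and epicardial 1 and 0 of 6 (2233 to 2981 against 2268 to 3532; Upk3b and Msln did not pass). Ventricular markers were 2 higher of 3 (Myl3 and Myl2), with sums of 821 to 1515 against 5174 to 9320. Myl2 went from 3.3 ± 2.3 to 87.6 ± 49.1. Lymphocyte markers such as Ms4a1 and Cd79a were too low to test. With 1 library left out, the glial markers higher were 0 to 3, the endothelial markers lower 0 to 3 (Kdr and Flt1 lost their calls without control M1), the smooth muscle markers lower 1 to 3, the endocardial markers higher 1 to 2 and the epicardial markers higher 1 to 3. The gamma A and B sum moved in the same direction as the cardiomyocyte and glial sums. It moved against the fibroblast, macrophage, dividing-cell, smooth muscle and pericyte, endocardial and ventricular sums. Among the knockouts, M1 had the highest gamma A and B sum (1405) but the lowest cardiomyocyte sum (301164), while its glial sum was the highest (578). Knockout M2 had the lowest gamma A and B sum (831). Its cardiomyocyte sum was 311823, below the knockout median of 444968, and its glial sum was 526, above the knockout median of 490. The part of these shifts in the protocadherin result was not tested.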

How the data were processed

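RNA-seq of 10 left atrial libraries was used. The submitters' processing notes name mm10, FastQC, TopHat2 2.0.11, featureCounts and DESeq2; for the annotation, the strand setting and reads that match several genes, nothing is given in the sources used here. The labels' protocols describe globin depletion and name both an mRNA kit and ribosomal depletion. The authors deposited raw counts per gene, used here as they stand, and, per the file headers, a normalized signal, which in the values equals the count over a single size factor for each library. The table's log2 fold change, its standard error, the linear fold ratio, the p-value and the test score are the authors' deposited comparison, per the file headers.

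Genes were filtered with filterByExpr, scaled by TMM and tested with edgeR 4.0.16 (quasi-likelihood F-test, R 4.3.3) with Benjamini-Hochberg adjustment at 0.05 over 13191 genes, knockout against control without covariates. The SE was taken as the size of the log2 fold change over the root of F. The fit was tested on simulated data. Alternatives used DESeq2 1.42.0, limma 3.58.1, other scalings, filters, covariates, thresholds and GC and length offsets (for 90.8% of tested genes). Permutation tests used log2(normalized count + 1). Totals of 5701670 to 7697556 reads limit precision for low members, and a count of 0 was taken to allow 3 counts.

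The members and the gene lists were chosen with earlier results of these data known. Named were Tbx5, the 6 highest members of each cluster, every called and every C-type member, up to 6 genes with the smallest adjusted p from each of 4 lists and up to 2 abundant genes of each cell type list. No 2 libraries agreed within sampling noise. No nucleotide or protein sequence is reported here.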

Additional observations from a re-analysis of the deposited data

Results flagged for a closer look

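In 7 of 74 groups of libraries (37 tested members in 4 controls and in 6 knockouts), 1 library stood far from the others by Dixon's test at 95%; chance flags about 1 in 20 groups. Among controls these were library M2 for Pcdhb16 (normalized count 58.4, above the rest), M1 for Pcdhb22 (18.9, below) and F2 for Pcdhgb8 (94.1, below). Among knockouts, M1 stood above the rest for Pcdhga10 (109.9), Pcdhgb8 (98.5) and Pcdhgc4 (65.3), and M2 stood below for Pcdhga9 (33.9).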

How the results depend on the processing

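The count of members called lower was 18, and 16 to 19 under the other scalings, tools, filters, sex as a covariate, GC and length offsets, an adjusted p of 0.1 and the female libraries alone; it was 17 to 19 with 1 library left out. With male libraries only it was 8 (2061 genes called in all, against 5622), and with an absolute log2 fold change above 1 it was 6 (1533 genes). Leaving out 1 library gave 4709 to 6085 genes. The count of members called higher, all of them beta, was 1; it was 4 with female libraries only, 3 with library size only or an adjusted p of 0.1, 2 with upper-quartile scaling or limma-voom, 0 with male libraries only or an absolute log2 fold change above 1, and 1 to 3 with 1 library left out. Alpha and gamma members called higher, and members whose effect differed by sex, were 0 in each alternative run. With library size as the only scaling, the median of all genes was 0.14 (log2). The values of named members under the alternatives leave out Pcdhga5 and Pcdhb5, which lay outside the naming rule. Both gained a call in some fits, as given above. Of 587 values of named members, 552 kept direction and side of the threshold, 22 lost the call, 12 of them Pcdhga6, and 1 gained it (Pcdhb20, female libraries). In 12, all of members not called, the sign turned. In male libraries this gave −0.31 for Pcdhb14, −0.28 for Pcdhb20, 0.14 for Pcdhgc4 and 0.13 for Pcdhgc5, and in female libraries 0.30 for Pcdhb19 and −0.20 for Pcdhgc3. With GC and length offsets Pcdhb19 was 0.22 and Pcdhgc3 −0.0292, and with library size only Pcdhb19 was 0.0235. With 1 library left out Pcdhb14 ran from −0.0235 (without knockout F2) to 0.200, Pcdhb19 from −0.187 to 0.0346 (without control M2) and Pcdhgc3 from −0.0720 (without knockout M1) to 0.0996. The number in the titles does not pair libraries (correlations of deviations −0.13 to 0.17, 1 of 4 controls closest to its own number); with a replicate block 18 members were lower and 1 higher. The cause of these moves was not tested. Ratios to Pcdhgc3 passed in 17 to 19 members with 1 library left out. Depth limits the alpha and most beta members.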

Other observations

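Genes next to the clusters, within 250 kb of either end or between them, were looked at after the protocadherin values had been seen. Of 19 such genes in the table, 16 were tested, 4 were higher in knockouts and 0 lower (edgeR adjusted p under 0.05), the first close to the 20.8% of all tested genes called higher. Hdac3, a histone deacetylase gene downstream of the gamma cluster, averaged 323 ± 25 over the 4 controls (SD) and 424 ± 23 over the 6 knockouts, a log2 fold change of 0.37 ± 0.09. Upstream of the alpha cluster, Slc35a4 (139 ± 16 against 202 ± 13), Cd14, a monocyte receptor gene (24.6 ± 6.4 against 56.9 ± 14.1), and Hars (323 ± 14 against 413 ± 38) were higher. Taf7, a single-exon gene between the beta and gamma clusters, was 119 ± 22 in controls and 114 ± 22 in knockouts and did not pass (−0.08 ± 0.16). Ik, upstream, came nearest to passing lower (−0.48 ± 0.19, edgeR adjusted p = 0.0558).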
